A study of Mus musculus with 2 samples.

Results

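The matrix metalloproteinases (MMPs) and the tissue inhibitors of metalloproteinases (TIMPs) were followed in smooth muscle cells (SMCs) of the mouse thoracic aorta. The 10 members were a fixed list of gene symbols, 6 MMPs (Mmp2, Mmp3, Mmp14, Mmp15, Mmp17 and Mmp19) and 4 TIMPs (Timp1 to Timp4), out of 28000 features in the matrices. The library labelled KO came from male C57BL/6 mice with the genotype Tsc1fl/fl.Myh11-CreERT2.mT/mG, and the Control library from male C57BL/6 mice with Myh11-CreERT2.mT/mG and intact Tsc1 (Tsc1+/+). Tsc1 encodes a subunit of the complex that restrains the growth kinase mTORC1. Both carried the tamoxifen-inducible recombinase CreERT2 under the smooth muscle Myh11 promoter and the mT/mG reporter, in which recombination replaces membrane tdTomato by membrane eGFP. Both received tamoxifen at an age of 1.5 weeks and were taken at 24 weeks, when sorted viable GFP-positive cells were run on the 10x droplet platform. Each genotype had 1 library, and no source used here gives the number of animals in it. Differences between genotypes therefore have no replicate check and no test. Intervals are 95% and cover counting error only.

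MMPs are zinc-dependent endopeptidases that cut collagens, elastin, laminins and proteoglycans. They are made as inactive proenzymes, and some are secreted while the membrane-type MMPs stay at the cell surface. TIMPs bind active MMPs one to one and block them. MMP2 activation is a known exception to pure inhibition, because TIMP2 holds pro-MMP2 to MMP14 at the cell surface, where a second MMP14 molecule cuts it. In the aortic wall, MMPs and TIMPs of SMCs are known for their part in turnover of the elastic lamellae and in the spread of SMCs after injury.

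Cells were used when they had at least 5 UMIs (unique molecular identifiers, each standing for 1 captured transcript) of eGFP, at least 500 genes and at most 10% mitochondrial UMIs. This gave 1919 KO cells of 2097, with 30778165 UMIs and a median of 15012 per cell, and 1692 Control cells of 2095, with 20011501 UMIs and a median of 11665. Levels are UMIs of a gene summed over cells and scaled to counts per 1e6 UMIs (CPM). UMIs were not divided by gene length, since a droplet library counts transcript ends. Tsc1, whose counted end may lie outside the deleted part and so checks no label, had 8.55 CPM in KO and 9.54 CPM in Control cells, a ratio of 0.895 (0.740 to 1.08). The eGFP level was 3592 CPM in KO and 5660.0 CPM in Control cells, and no tdTomato UMI was counted in either. All 6 SMC markers were detected, with summed levels of 18270 CPM in KO and 37414 CPM in Control cells. The fibroblast markers Pdgfra, Dcn, Lum, Dpt, Pi16 and Col1a1 were also all detected, at a summed 1030.0 CPM in KO and 483 CPM in Control cells. Col1a1 alone gave 395 CPM in KO and 442 CPM in Control cells. The Control sum was therefore almost only Col1a1, and the other markers differed far more between the libraries than the sums. The endothelial markers Cdh5 and Tie1, the macrophage marker Adgre1 and the T cell marker Cd3e were at 0 UMIs in the labelled cells of both libraries. The 5 endothelial markers summed to 11.6 CPM in KO and 19.8 CPM in Control cells, the 6 macrophage markers to 15.1 and 17.6 CPM, the 5 lymphocyte markers to 1.53 and 3.15 CPM and the 4 neutrophil markers to 24.3 and 8.55 CPM. The libraries shared 16 cell barcodes, 4 of them among the cells used.

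Promoters are shown for Mmp3 and Timp1, whose KO transcripts were most concentrated in single cells of low contractile gene content, and for Timp4, which ran the other way. The windows are from RefSeq (mouse build GRCm38.p6), 250 bases before to 50 bases after the annotated start, and 7 of the 10 members had one (not Mmp2, Mmp17 and Mmp19). Capitals mark runs of letters that were searched on both strands. These were TGAGTCA, the AP-1 site, and TGAGTAA, a variant of it. TATAAA is the TATA box, and AGGAAG is the core of an ETS site, shown as CTTCCT where it lies on the other strand. Positions are counted from 0 at the annotated start.
Mmp3: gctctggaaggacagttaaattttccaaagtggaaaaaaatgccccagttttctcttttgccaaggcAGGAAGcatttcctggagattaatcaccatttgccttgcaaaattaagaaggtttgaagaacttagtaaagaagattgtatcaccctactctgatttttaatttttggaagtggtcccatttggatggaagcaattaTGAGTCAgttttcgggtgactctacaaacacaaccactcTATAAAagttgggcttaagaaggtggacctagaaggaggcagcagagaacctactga
Timp1: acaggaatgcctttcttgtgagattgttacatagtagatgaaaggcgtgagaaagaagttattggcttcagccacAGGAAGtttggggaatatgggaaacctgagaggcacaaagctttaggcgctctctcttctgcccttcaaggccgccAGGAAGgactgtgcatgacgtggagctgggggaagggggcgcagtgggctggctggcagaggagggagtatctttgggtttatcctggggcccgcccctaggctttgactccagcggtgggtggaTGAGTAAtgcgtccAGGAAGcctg
Timp4: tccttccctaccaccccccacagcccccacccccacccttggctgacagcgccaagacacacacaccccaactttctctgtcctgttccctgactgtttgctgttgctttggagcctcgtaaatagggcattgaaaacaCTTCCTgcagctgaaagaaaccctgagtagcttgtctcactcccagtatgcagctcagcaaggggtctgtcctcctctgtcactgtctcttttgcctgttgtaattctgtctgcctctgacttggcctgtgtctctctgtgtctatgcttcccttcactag
The Mmp3 window lies at chr9:7445572-7445871 on the plus strand, that of Timp1 at chrX:20869916-20870215 on the plus strand and that of Timp4 at chr6:115252156-115252455 on the minus strand. Of these members, Mmp3 alone held TGAGTCA, at -46 to -40, and TATAAA, at -7 to -2, which 5.2% and 13.6% of 32851 mouse promoter windows hold. TGAGTAA stood in Timp1 alone, at 26 to 32, and in 2.68% of all windows. AGGAAG or its reverse complement stood in 5 of the 7 windows (Mmp3, Mmp14, Timp1, Timp3 and Timp4), 3 times in Timp1, against 35.4% of all windows. CACGTG, the E-box letters bound by the MiT family, stood in 0 of the 7 and in 7.15% of all, and GGGCGG (the GC box) in 5 of the 7 and in 35.7% of all. A match here is a run of letters and not a shown binding site.

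Most members were higher in KO than in Control cells. Of the 10 members 8 were measured, meaning at least 10 CPM in 1 or both libraries, and a ratio of at least 1.5 or at most its inverse was counted as higher or lower. By this rule 6 were higher (Mmp2, Mmp3, Mmp14, Timp1, Timp2 and Timp4), 1 was lower (Mmp17) and Timp3 was neither. Over all 8113 genes measured, 13.2% were higher and 11.4% lower. The median log2 ratio of the 8 was 1.74, against -0.0010 over all genes measured. Mmp3 reached 10 CPM only in KO, so it could be counted on the higher side alone.

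Among the secreted proteases, Mmp2 (gelatinase A, which cuts basement membrane and denatured collagens; ENSMUSG00000031740, chromosome 8, 92827291 to 92853420, mm10) had 4201 UMIs in KO and 349 in Control cells. This was 136 CPM (132 to 141) in KO against 17.4 CPM (15.7 to 19.4) in Control, a ratio of 7.83 (7.02 to 8.75), and it ranked number 106 from the top of the 8113 genes. Mmp3 (stromelysin-1, which cuts proteoglycans and activates other pro-MMPs; chromosome 9, 7445822 to 7455975) had 455 UMIs in KO and 77 in Control cells, or 14.8 CPM against 3.85 CPM, a ratio of 3.84 (3.01 to 4.96). Both proteases were far higher in KO by this count, but the UMIs of Mmp3 came from very few cells, as shown further on. Mmp19, a secreted protease of basement membranes (chromosome 10, 128790910 to 128800824), had 53 UMIs in KO and 2 in Control cells, too few to be measured, with a ratio of 17.2 (4.54 to 146).

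The membrane-type proteases went separate ways. Mmp14 (MT1-MMP, the cell-surface collagenase that activates pro-MMP2; chromosome 14, 54431612 to 54445364) had 33.5 CPM (31.5 to 35.6) in KO and 16.1 CPM (14.4 to 18.0) in Control cells, a ratio of 2.07 (1.83 to 2.36). Mmp17 (MT4-MMP, held in the membrane by a lipid anchor; chromosome 5, 129584169 to 129611099) had 17.8 CPM (16.3 to 19.4) in KO and 57.0 CPM (53.7 to 60.4) in Control cells, a ratio of 0.313 (0.282 to 0.346). In mice, loss of Mmp17 is known to disturb the maturation of aortic SMCs. Mmp15 (MT2-MMP; chromosome 8, 95352268 to 95375080) was near the detection limit, at 1.27 CPM in KO and 1.30 CPM in Control cells, and a ratio of 0.975 (0.579 to 1.67) leaves room for a difference of either sign.

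Of the inhibitors, Timp1, Timp2 and Timp4 were counted as higher in KO, and Timp3 stayed under the 1.5-fold limit. Timp1, a soluble inhibitor that is weak against membrane-type MMPs (chromosome X, 20870166 to 20874735), had 134 CPM (129.7 to 138) in KO and 20.8 CPM (18.8 to 22.9) in Control cells, a ratio of 6.43 (5.82 to 7.13). Timp4, an inhibitor typical of heart and vessels (chromosome 6, 115241892 to 115252205), had 66.9 CPM (64.0 to 69.8) in KO and 15.4 CPM (13.7 to 17.2) in Control cells, a ratio of 4.34 (3.85 to 4.91). Timp2, which inhibits MMPs broadly and takes part in activation of pro-MMP2 (chromosome 11, 118301069 to 118355740), had 1049.9 CPM in KO and 362 CPM in Control cells, a ratio of 2.90 (2.83 to 2.97). Timp3, which binds to the extracellular matrix and also blocks ADAM and ADAMTS proteases (chromosome 10, 86300372 to 86349506), had 1114 CPM in KO and 858 CPM in Control cells, a ratio of 1.30 (1.27 to 1.32).

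**Figure D1:**
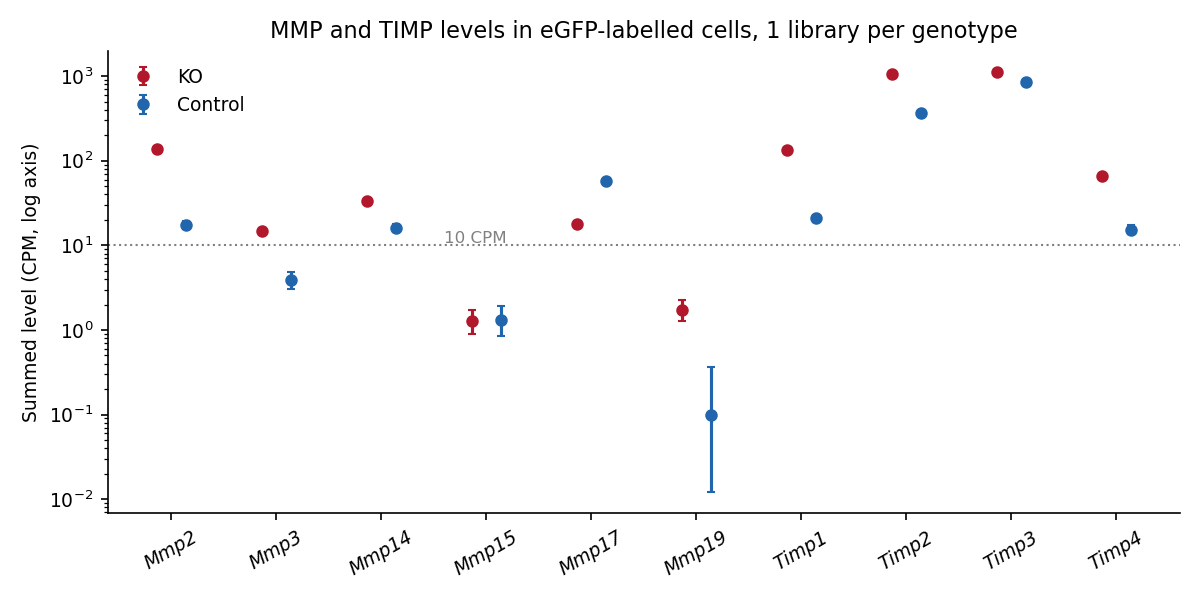
Summed level of each of the 10 members (CPM, log axis) in the eGFP-labelled cells of the KO library (red, left of each pair) and the Control library (blue), with exact Poisson 95% intervals. Mmp2, Mmp3, Mmp14, Timp1, Timp2 and Timp4 lie at least 1.5 times higher in KO, Mmp17 lies lower, and Mmp15 and Mmp19 lie under 10 CPM.

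Summed over the 6 MMPs, KO cells had 206 CPM and Control cells 95.8 CPM, a ratio of 2.15 (2.04 to 2.26). Summed over the 4 TIMPs, KO cells had 2364 CPM and Control cells 1256 CPM, a ratio of 1.88 (1.86 to 1.91). There were thus 11.5 TIMP UMIs per UMI of these 6 MMPs (11.2 to 11.8) in KO and 13.1 (12.5 to 13.7) in Control cells. This gap was small beside the differences of single members. The weight of each inhibitor in the sum differed: Timp2 held 40.9% of member UMIs in KO and 26.8% in Control cells, while Timp3 held 43.3% in KO and 63.5% in Control cells. Such sums count captured transcripts, whose capture may differ from gene to gene, and not protein or activity. They also leave out MMPs off the list. Among these, Mmp23 had 77.8 CPM in KO and 159.6 CPM in Control cells, more in Control than the 6 MMPs together. Mmp16 and Mmp11 were higher in KO, at 27.9 and 18.9 CPM against 5.90 and 7.995 CPM. The TIMP-to-MMP count thus holds for the listed members only, and the balance over all MMPs was not computed.

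Cells were then ordered by contractile share, the percentage of a cell's UMIs from 12 contractile genes (Acta2, Tagln, Myh11, Cnn1, Myl9, Tpm1, Tpm2, Mylk, Smtn, Lmod1, Synpo2 and Actg2), and each library was cut into low, middle and high tertiles. No member was part of the score. Median shares were 0.618%, 2.23% and 4.35% in the KO tertiles and 3.46%, 5.02% and 6.66% in the Control tertiles, so the libraries overlap only in part. The tertiles are ranges and not cell types: 184 and 163 KO cells and 194 and 170 Control cells lay within 0.25 percentage points of the lower and upper boundary.

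In KO cells the members split by contractile share. Of 8 measured members, 6 were higher in the low than in the high tertile (Mmp2, Mmp3, Mmp14, Timp1, Timp2 and Timp3) and 2 were lower (Mmp17 and Timp4). Over all 8028 genes measured there, 12.2% were higher and 8.59% lower. Mmp3 and Mmp17 reached 10 CPM only at the end where they were high, so each could be counted in 1 direction alone. Mmp2 had 269, 85.9 and 44.7 CPM in the low, middle and high tertile, a low-to-high ratio of 6.00 (5.44 to 6.64). Timp1 followed the same course at 279, 63.6 and 46.0 CPM, a ratio of 6.07 (5.51 to 6.70). For Mmp3 the levels were 35.1, 5.14 and 2.41 CPM, a ratio of 14.6 (9.73 to 22.8). These 3 transcripts were thus concentrated in the KO cells with least contractile mRNA. Timp2 stood at 1475, 971 and 678 CPM and Timp3 at 1469, 1121 and 737 CPM, with ratios of 2.17 (2.11 to 2.24) and 1.99 (1.94 to 2.05). Mmp14 had the smallest ratio of the 6, at 41.8, 32.5 and 25.6 CPM, a ratio of 1.63 (1.40 to 1.91). From the low to the middle tertile alone, 4 of the 8 were higher in the low one (Mmp2, Mmp3, Timp1 and Timp2) and Mmp17 was lower, beside 4.88% and 5.52% of all genes measured. Here too Mmp3 and Mmp17 could each be counted in 1 direction alone.

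Mmp17 and Timp4 ran the opposite way. Mmp17 had 4.05, 21.8 and 28.5 CPM in the low, middle and high KO tertile, a low-to-high ratio of 0.142 (0.101 to 0.196), from 44, 208 and 296 UMIs. Timp4 had 48.9, 62.6 and 89.5 CPM, a ratio of 0.547 (0.490 to 0.609). The 2 inhibitors with the largest KO to Control ratios, Timp1 and Timp4, were therefore highest at opposite ends of the contractile range. Timp4 is thus the only member counted as higher in KO than in Control and lower in the low than in the high KO tertile. The TIMP-to-MMP count of the listed members was 9.23, 15.0 and 15.0 in the KO tertiles and 13.8, 14.0 and 11.6 in the Control tertiles.

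In Control cells most members were likewise higher in the low tertile. Of 7 measured members, 5 were higher in the low than in the high tertile (Mmp2, Mmp14, Timp1, Timp2 and Timp3) and 0 were lower, where 15.5% and 1.86% of all 7947 genes measured were higher and lower. Timp1 reached 10 CPM only in the low tertile, so it could be counted as higher alone. Mmp2 had 30.1, 14.6 and 10.3 CPM, a low-to-high ratio of 2.93 (2.23 to 3.88), and Mmp14 24.2, 14.2 and 11.7 CPM, a ratio of 2.06 (1.56 to 2.72). The ratios of Timp2 and Timp3 were 1.55 and 1.56. Timp1 had 52.9, 8.43 and 7.34 CPM, a ratio of 7.20 (5.39 to 9.78), but a single Control cell held 97 of its 304 UMIs in the low tertile, and without that cell the level there was 36.2 CPM. Without the 10 highest Timp1 cells of each tertile the low tertile had 11.1 CPM and the ratio was 2.15. The low-to-high ratio was smaller in Control than in KO for Mmp2, Timp2 and Timp3 and larger for Mmp14 and, with all cells, Timp1. Mmp17 was flat in Control, at 53.7, 57.8 and 58.7 CPM, a low-to-high ratio of 0.915 (0.789 to 1.06), and so was Timp4, at 14.8, 16.3 and 15.1 CPM, with a ratio of 0.980 (0.731 to 1.31). Whether the slopes differ between genotypes was not tested, since each slope comes from 1 library.

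**Figure D2:**
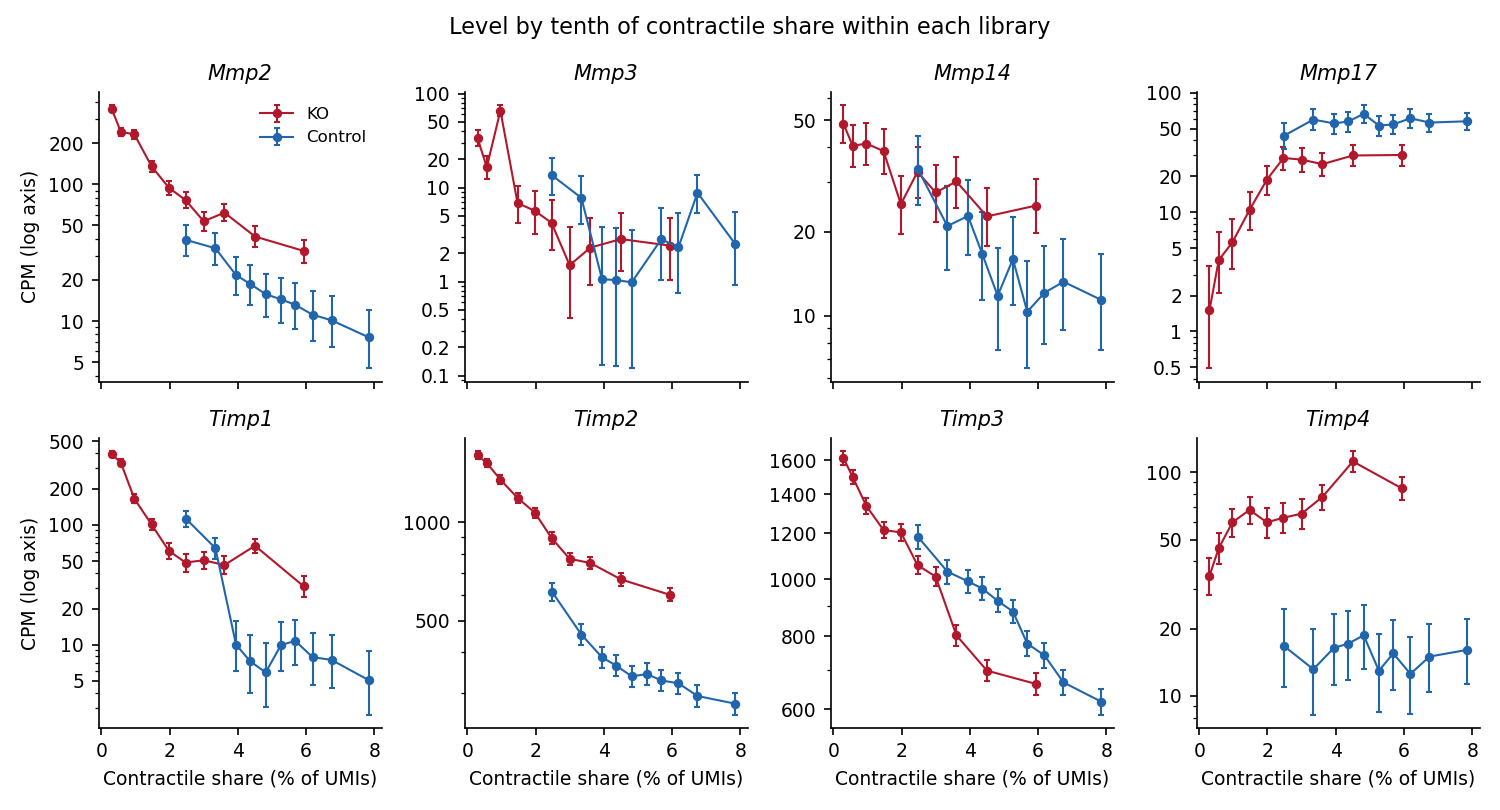
Level of each measured member (CPM, log axis) in 10 equal groups of cells ordered by contractile share within the KO (red) and Control (blue) library, plotted at the median share of the group in % of UMIs, with exact Poisson 95% intervals. Mmp2, Timp1, Timp2 and Timp3 decline to the right in KO while Mmp17 and Timp4 climb, and a Control group with 0 Mmp3 UMIs has no point on the log axis.

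Markers of other cells shifted along the same axis. The 6 fibroblast markers summed to 2141, 561 and 299 CPM in the KO tertiles, with 6, 5 and 5 of 6 detected and Pi16 at 0 in the middle and high tertile, and to 673, 454 and 362 CPM in the Control tertiles, with 6, 6 and 5 of 6 detected and Dpt at 0 in the high tertile. Col1a1 alone gave 569, 438 and 347 CPM of the sums in the low, middle and high Control tertile, and 372 and 220 CPM in the middle and high KO tertile. Dcn and Lum, small proteoglycans of fibroblasts, had 877 and 627 CPM in the low KO tertile. The eGFP level was 2761, 3267 and 4758 CPM in the KO tertiles and 4533, 5548 and 6625 CPM in the Control tertiles. The 6 macrophage markers summed to 13.8 to 16.1 CPM in the KO tertiles and 14.3 to 21.04 CPM in the Control tertiles, with Adgre1 at 0. The 4 neutrophil markers summed to 6.54, 58.3 and 11.7 CPM in the KO tertiles and 7.47 to 9.46 CPM in the Control tertiles. The part of these markers in the slopes was not tested. Median depth in the low, middle and high tertile was 16074.5, 14178 and 15130.0 UMIs per cell in KO and 9868, 11829.5 and 13633 in Control.

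Cells with a UMI of Pdgfra, Dpt or Pi16 were 559 of the KO cells (29.1%) and 153 of the Control cells (9.04%), and the KO to Control ratios were recomputed without them. Dcn and Lum were not part of this rule, so cells with these fibroblast transcripts could stay among the cells compared. Mmp2 stood at 7.13, Mmp14 at 2.01, Mmp17 at 0.3501, Timp2 at 2.64 and Timp4 at 4.52, close to the values over all cells. Timp1 stood at 4.36. Mmp3 stood at 1.16 and was no longer measured, and the remaining cells of the libraries had nearly the same Mmp3 level. In the KO slope from low to high tertile, leaving out these cells gave ratios of 5.22 for Mmp2, 5.25 for Timp1 and 4.46 for Mmp3, and Mmp14 at 1.44 was no longer counted. Without the low KO tertile, Mmp3 had a ratio of 0.965, Mmp2 of 3.70 and Timp1 of 2.62.

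To compare the genotypes at like contractile content, the pooled cells were cut at shares of 2.59% and 4.74%, which left 1104, 568 and 247 KO cells and 100, 635 and 957 Control cells in a low, middle and high range. Contractile content was alike and not equal, with median shares of 1.13%, 3.45% and 5.56% in KO and 2.25%, 3.93% and 6.03% in Control cells. Mmp2, Timp2, Timp4 and Mmp17 passed 1.5-fold in the same direction in all 3 ranges. Mmp2 had 202, 51.0 and 36.9 CPM in KO against 41.8, 24.1 and 11.9 CPM in Control cells, ratios of 4.83 (3.49 to 6.87), 2.11 (1.76 to 2.54) and 3.09 (2.45 to 3.90). Timp2 kept ratios of 1.92, 1.82 and 1.98. Timp4 had ratios of 2.48 (1.58 to 4.14), 5.11 (4.16 to 6.34) and 6.74 (5.66 to 8.05). Mmp17 had 9.91, 27.0 and 32.2 CPM in KO against 46.3, 57.1 and 57.7 CPM in Control cells, ratios of 0.214, 0.473 and 0.558. These 4 members thus differed between the libraries also within like ranges of contractile content. The KO high tertile set against all Control cells, median shares 4.35% and 5.02%, gave 5 higher and 1 lower of 7 measured members, beside 9.24% and 10.9% of all genes measured, with ratios of 2.57 for Mmp2, 5.81 for Timp4 and 0.500 for Mmp17.

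With all cells counted, the other members did not keep their pooled difference across the ranges. Timp1 had ratios of 1.24 (1.05 to 1.48), 2.10 (1.76 to 2.51) and 4.17 (3.20 to 5.45). With 5 ranges in place of 3 the second range gave 0.556 for Timp1, which turns its direction, and 2.15 for Mmp2, and the first range held too few Control cells for a value. That second range held 174 Control cells, among them 1 with 97 Timp1 UMIs at a share of 2.40%. The Timp1 ratio without this cell was not computed there, so the turn is not firm. In the low range 1 Control cell held 97 of 140 Timp1 UMIs, and 1 KO cell held 392 of 3505. The levels were 196 CPM in KO and 158 CPM in Control with these cells, and 175 CPM in KO and 50.04 CPM in Control without them. In the middle range 1 KO cell held 70 of 469 and 1 Control cell 74 of 178, and the levels were 54.4 CPM in KO and 25.9 CPM in Control with them, and 46.4 CPM in KO and 15.1 CPM in Control without them. Without the highest cell of each library the high range had 31.1 CPM in KO and 7.85 CPM in Control. By this count Timp1 was higher in KO in all 3 ranges. In the low range the cut took 69.3% of the Control and 11.2% of the KO UMIs, and in the middle range 41.6% and 14.9%. Mmp14 had ratios of 0.911 (0.654 to 1.30), 1.46 (1.18 to 1.82) and 1.98 (1.53 to 2.55). Mmp3 had ratios of 1.17, 0.760 and 0.677, each with an interval that includes 1. Timp3, 1.30 times higher after pooling, was slightly higher in the low range at 1.10 (1.03 to 1.17) and lower in the other ranges at 0.877 (0.849 to 0.907) and 0.877 (0.841 to 0.915). In the low range 3 of 8 measured members were higher and 1 lower, beside 13.3% and 22.9% of all genes measured. The counts were 4 and 1 of 7 in the middle range, beside 9.15% and 12.9%, and 5 and 1 of 7 in the high range, beside 10.7% and 11.1%. Mmp17 reached 10 CPM only in Control in the low range, and Timp1 only in KO in the high range. Each could be counted there in 1 direction alone.

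**Figure D3:**
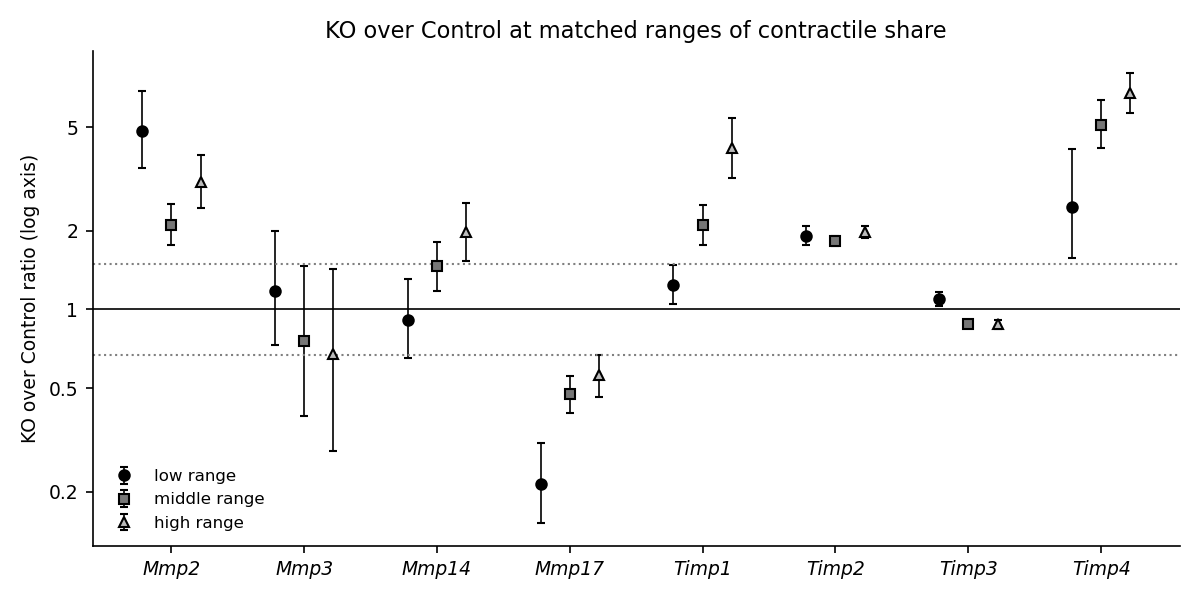
KO over Control ratio of each measured member (log axis) in the low, middle and high range of contractile share shared by both libraries, with exact conditional 95% intervals; the solid line marks equal levels and the dotted lines 1.5-fold. Mmp2, Timp2 and Timp4 lie over the upper dotted line and Mmp17 under the lower one in every range, while Timp3 stays near 1.

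The share of cells with a UMI showed how widely each gene was detected. All cells were thinned to 5000 UMIs so that depth was equal, which kept 1902 KO and 1602 Control cells. Timp3 was found in 96.8% of thinned KO and 96.6% of thinned Control cells. Timp2 was found in 96.0% of KO and 80.5% of Control cells. Mmp2 was found in 33.9% (31.8 to 36.1) of KO and 6.62% (5.45 to 7.95) of Control cells, and before thinning in 54.9% and 13.0%. Timp1 was found in 24.0% of KO and 4.31% of Control cells, and Timp4 in 22.8% and 7.43%. Mmp3 was found in 2.10% of KO and 0.874% of Control cells, and before thinning in 4.59% and 1.65%. Mmp14 was found in 14.4% and 8.86%, and Mmp17 in 8.36% (7.15 to 9.70) of KO and 22.5% (20.5 to 24.7) of Control cells. Before thinning the shares in KO and Control cells were 46.7% and 9.34% for Timp1, 45.6% and 14.5% for Timp4, 36.7% and 17.0% for Mmp14, 22.5% and 45.6% for Mmp17, 99.7% and 94.7% for Timp2 and 99.8% and 99.6% for Timp3.

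As a guide to background, Control cells under 5 eGFP UMIs were used. Of 350 such cells 330 had no eGFP UMI and 20 had 1 to 4, and the one with most Timp2 and Timp3 UMIs had 4 eGFP UMIs and a contractile share of 3.59%, so the group may hold some SMCs. After thinning 77 cells were left, with a UMI of Timp2 in 15.6%, of Timp3 in 10.4%, of Mmp14 in 2.6% and of Mmp2 or Timp4 in 1.30% each. Timp1, Mmp3, Mmp15 and Mmp17 were found in 0 of the 77 cells, where a floor of 3 counts allows a share of up to 3.90% and the exact binomial interval one of up to 4.68%. These cells are shallow, with a median of 3780.5 UMIs before thinning against 11665 in labelled Control cells. The KO library left 3 such cells after thinning, too few to give its background. Before thinning it had 17, with 33 Mmp3 and 23 Timp1 UMIs. In KO 1 cell with 0 eGFP UMIs and a contractile share of 0.315% held all 33 and 16 of the 23. High counts of these 2 members were thus not confined to labelled KO cells, and the type of that cell was not tested. The labelled Control shares of Mmp3 at 0.874% and Mmp15 at 0.811% were below and that of Timp1 at 4.31% was near the limits of the 77 cells, so the shares alone do not set them apart from background. By level, Mmp3 had 3.85 CPM (3.04 to 4.81) in labelled Control cells and 0 UMIs in the 350 cells, with an interval up to 2.57 CPM. But 10 labelled Control cells held 76.6% of its UMIs, and without them it had 0.905 CPM. Outside these few cells the level does not set Mmp3 apart from background either. For Timp2, Timp3, Mmp2, Timp4 and Mmp14 the labelled Control shares were 3 or more times those of the 77 cells. The shares of Mmp2, Timp4 and Mmp14 in the 77 cells rest on very few cells, so this fold alone does not set these members apart from background. By level, Mmp2 had 1.39 CPM (0.169 to 5.04), Timp4 0.697 CPM (0.0177 to 3.89) and Mmp14 5.58 CPM (2.41 to 11.0) in the 350 cells. These intervals lie below those of the labelled Control cells.

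By contractile tertile the share of thinned cells with Mmp2 was 60.7%, 24.7% and 16.3% in KO and 10.9%, 4.95% and 4.35% in Control cells. The share with Timp1 was 40.1%, 19.1% and 12.7% in KO and 6.73%, 3.67% and 2.72% in Control cells. That with Mmp17 was 2.20%, 9.24% and 13.6% in KO and 20.4%, 21.8% and 25.2% in Control cells. Every tertile of KO stood above every tertile of Control for Mmp2, Timp1, Timp2 and Timp4 and below for Mmp17.

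**Figure D4:**
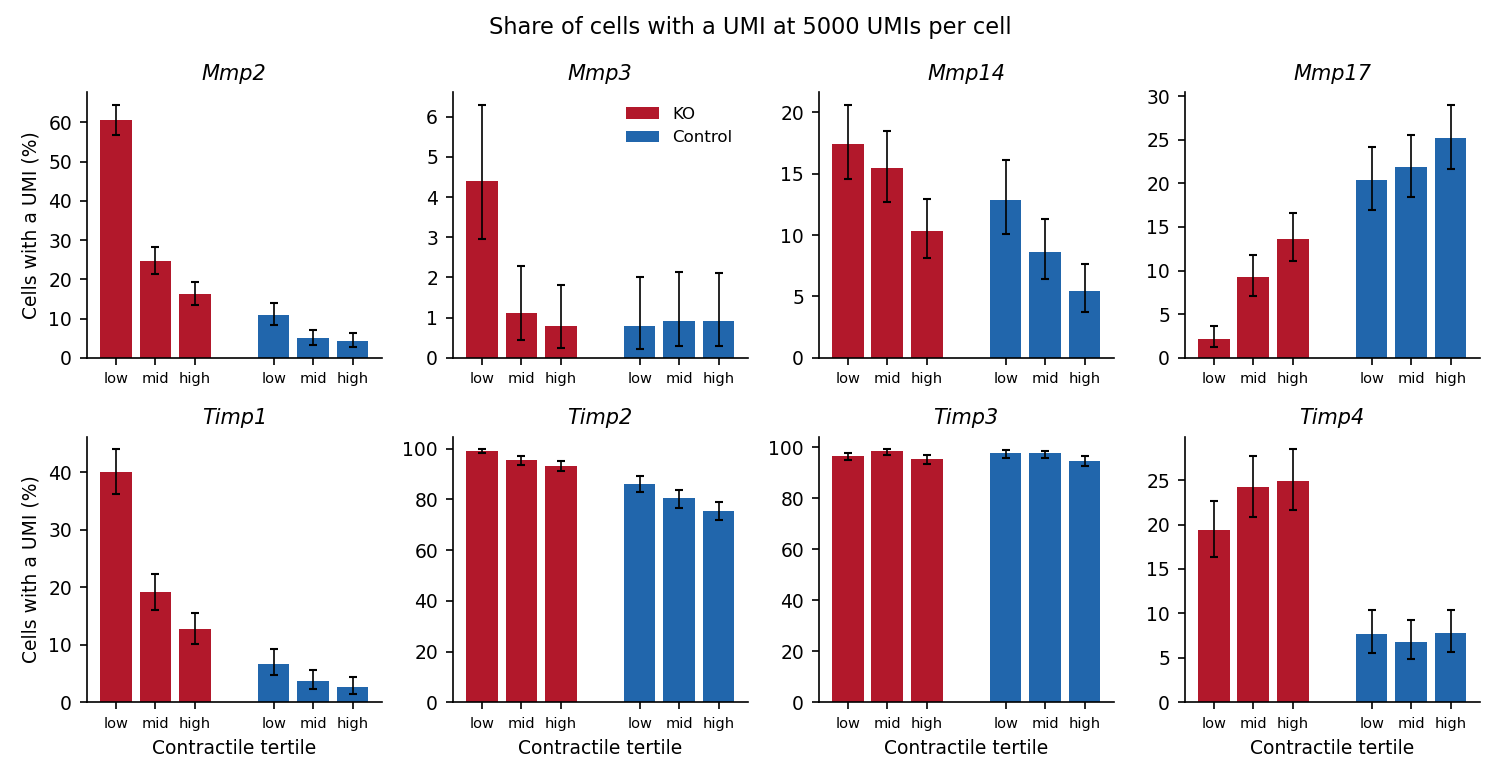
Share of cells (%) with at least 1 UMI of each measured member after thinning to 5000 UMIs, in the low, middle and high contractile tertile of the KO (red, left) and Control (blue) library, with exact binomial 95% intervals; each panel has its own scale from 0. The Mmp2 bars stand at 60.7%, 24.7% and 16.3% in KO and all Control bars for Mmp2 are at most 10.9%.

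Mmp2 and Timp1 were often found together in KO cells, where 33.3% of thinned cells with Mmp2 had Timp1 against 19.2% of those without. Within the low, middle and high KO tertile the shares were 43.5%, 23.9% and 9.62% with Mmp2 against 34.8%, 17.5% and 13.3% without, so the gap was smaller within tertiles and turned in the high one. The intervals of the 2 shares overlapped in every tertile. In the high one they were 4.71% to 17.0% with Mmp2, from 10 of 104 cells, and 10.5% to 16.5% without, so the turn is not firm. Timp4 leaned the other way, found in 18.1% of KO cells with Mmp2 and 25.2% of those without. In the low KO tertile these shares were 16.3% and 24.0%.

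The members differed in how many cells held their UMIs. The 10 cells with most UMIs held 62.2% of all Mmp3 UMIs in KO and 76.6% in Control, and 33.7% of all Timp1 UMIs in KO and 58.7% in Control. A single KO cell had 114 Mmp3 UMIs and another 392 Timp1 UMIs, both with contractile shares under 1%, at 0.837% and 0.380%. For Mmp2, Mmp14, Mmp17, Timp2, Timp3 and Timp4 the 10 highest KO cells held between 2.98% and 9.33%. Mmp3 had a UMI in 88 of 1919 KO cells, and 24 of them with at least 5 UMIs held 366 of its 455 UMIs. Timp1 was spread more widely, with a UMI in 897 KO cells, but 152 of them with at least 5 UMIs held 2843 of 4117.

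Without the 10 highest cells of each member in each library, the ratios were 8.79 for Mmp2, 10.3 for Timp1 and 6.22 for Mmp3, where Mmp3 stood at 5.63 CPM in KO, against 0.905 CPM in Control, and was no longer measured. The other ratios moved little, to 2.11 for Mmp14, 0.306 for Mmp17, 2.89 for Timp2, 1.28 for Timp3 and 4.52 for Timp4. For Mmp3 this left 172 UMIs in KO and 18 in Control cells, so few cells set its level in both libraries. The 10 cells held 76.6% of Mmp3 UMIs in Control and 62.2% in KO, and 58.7% and 33.7% of Timp1 UMIs. The cut was thus larger in Control for both members, and their larger ratios do not show that the differences are firm. Over all cells, the Mmp3 ratio was near 1 where the low KO tertile or the cells with Pdgfra, Dpt or Pi16 were left out, as it was in the low common range.

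**Figure D5:**
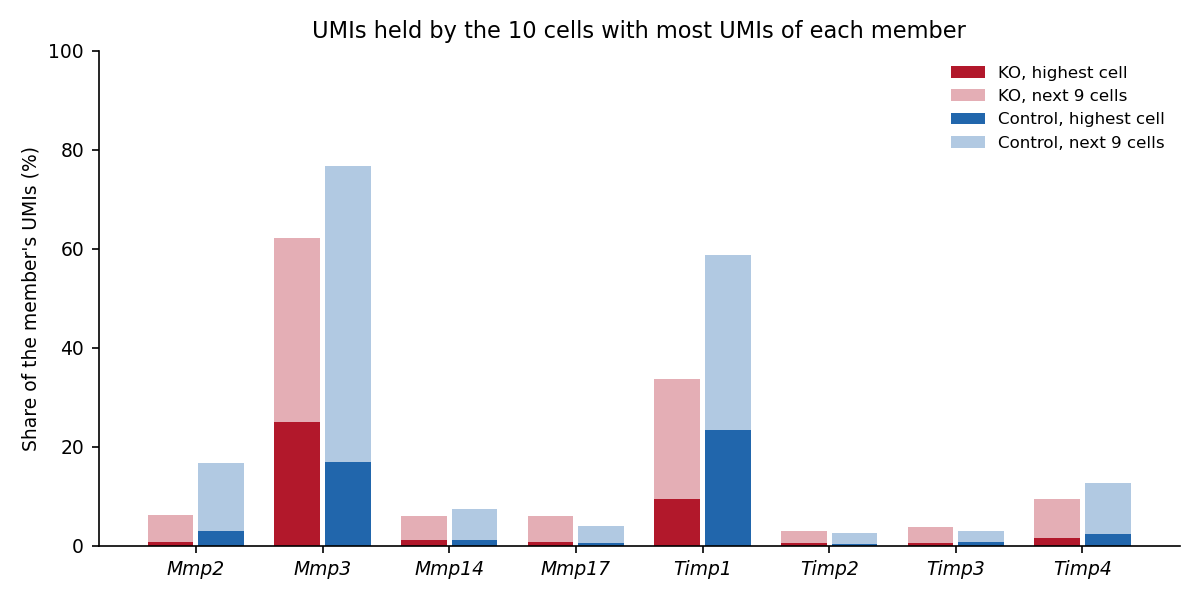
Share (%) of the UMIs of each of the 8 measured members held by the cell with most of them (dark) and by the next 9 cells (pale) in the KO (red, left) and Control (blue) library. Mmp3 and Timp1 stand out with 62.2% and 33.7% in KO and 76.6% and 58.7% in Control, while the other 6 members plotted stay below 17% in both libraries.

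Across 1919 KO cells, the genes most like each member with at least 50 CPM in KO were listed by Pearson correlation of log counts scaled to 10000 UMIs, among 5446 genes and as a description only. All values of a cell share its library, depth and total. Mmp2 ran most closely with Gas6, a ligand of the TAM receptor kinases (0.53), and with Lum (0.43), Dcn (0.41), Phlda3 (0.40) and Mdk (0.39). Timp1 ran with the adhesion molecule Vcam1 (0.43), with Mgp (0.42), with Spp1 (0.39), with Fxyd5 (0.35) and with Tnfrsf11b (0.34). In cells thinned to 5000 UMIs these were 0.32, 0.32, 0.28, 0.18 and 0.19, and Timp1 itself had a correlation of 0.26 with the log UMIs of a cell. Timp2 ran with the proteoglycan gene Bgn (0.52), Igfbp4 (0.49), Sepp1 (0.49), Mgp (0.46) and Cp (0.45). Timp2 itself ranked number 6 for Mmp2, at 0.38. Timp3 ran more loosely with Zbtb20 (0.32), Smoc1 (0.32), Ctnnb1 (0.31), Fosb (0.28) and Aqp1 (0.28), and no gene passed 0.17 with Timp4. At equal depth the correlations were 0.36 for Mmp2 with Gas6, 0.40 for Timp2 with Bgn and 0.19 to 0.21 for the Timp3 genes. Within the low KO tertile these correlations were smaller for Mmp2, at 0.35 with Gas6 and 0.29 with Lum.

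Some cells carried homeobox genes, counted as at least 2 UMIs of Dlx5, Dlx6, Msx2 and Prrx2 together, which were 158 KO cells (8.23%) and 370 Control cells (21.9%). In Control, Mmp2 had 36.3 CPM in these cells and 12.6 CPM in the others, Mmp14 32.1 and 12.0 CPM, and Timp2 521 and 321 CPM. These were the 3 of 7 measured members counted as higher there, with ratios of 2.88, 2.67 and 1.62 and 0 lower, beside 9.89% and 3.00% of all genes measured. In KO, Timp1 (237 against 124 CPM) and Timp3 (1667 against 1060.5 CPM) were counted as higher in homeobox-positive cells, and Mmp3 (5.89 against 15.6 CPM) and Mmp17 (8.84 against 18.7 CPM) were lower, beside 6.10% and 3.35% of all genes measured. Mmp3 and Mmp17 reached 10 CPM only in the homeobox-negative cells, so they could be counted as lower alone. Mmp3 had 16 UMIs in the homeobox-positive KO cells, and 10 of the other KO cells held 64.5% of the Mmp3 UMIs there. The Timp1 count rests on 1 cell with 392 of its 644 UMIs: without the highest cell of each group Timp1 had 93.9 CPM in homeobox-positive and 114 CPM in the other KO cells, which turns the direction. The homeobox-positive cells also differed in median contractile share, at 0.929% against 2.36% in KO and 3.71% against 5.35% in Control.

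Cells left out by the filters were compared as well. In the 350 Control cells under 5 eGFP UMIs, all 7 measured members were lower than in labelled Control cells, beside 46.5% of all genes measured, and Timp1 had 0 UMIs, where a floor of 3 counts allows up to 2.09 CPM and the exact Poisson interval up to 2.57 CPM. Mmp2, Mmp14, Mmp17, Timp1 and Timp4 reached 10 CPM only in the labelled cells, so they could be counted as lower alone. Labelled cells over the mitochondrial limit, 146 in KO and 45 in Control, had more Mmp17 than the cells used, at 33.6 against 17.8 CPM in KO and 114 against 57.0 CPM in Control. In KO 2 members were higher there (Mmp17 and Timp4) and 2 lower (Mmp3 and Timp1), beside 7.27% and 8.42% of all genes measured. Mmp3 reached 10 CPM only in the KO cells used, so it could be counted as lower alone. In Control 1 was higher and 3 were lower (Mmp2, Mmp14 and Timp1), beside 27.3% and 26.2%. These 3 had only 1, 2 and 1 UMIs in the Control cells over the limit, below the floor of 13.7 CPM. Their intervals there include the levels of the cells used, so no decrease is shown. They reached 10 CPM only in the cells used and could be counted as lower alone. A limit of 5% in place of 10% gave a KO to Control ratio of 0.164 for Mmp17.

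The authors' deposited table of mean counts per 10000, by cluster and library, gives the members over clusters that are numbered and not named. In that table KO cluster 2, with the least Acta2 of the 5 KO clusters that hold over 1 count of it, had the highest KO means of Mmp2 (2.59), Mmp3 (0.677) and Timp2 (14.1), and KO cluster 3 that of Timp1 (2.43). KO cluster 4 had the highest means of Timp3 (17.7) and Timp4 (1.35) in the authors' deposited table. Its Acta2 mean was 60.1, against 46.1 in KO cluster 2 and 243 in KO cluster 0, where Timp4 was 1.03. The highest Timp4 mean thus did not fall in the KO cluster with most Acta2. The highest Control mean of Mmp17 there was 0.586 in cluster 0, whose KO mean was 0.209. Control cluster 2 had the highest Mmp3 mean of the table (2.40) and 0 for Timp4. The number of cells behind each mean is not given in that table.

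Genes around the members were counted from 7 lists, whose members were chosen with earlier results of these libraries known. The counts can be read against the 13.2% and 11.4% of all genes measured that were higher and lower. Of 17 other MMPs, 7 had 0 UMIs in both libraries and 3 were measured: Mmp16 (MT3-MMP) at 27.9 CPM in KO and 5.90 CPM in Control, Mmp11 (stromelysin-3) at 18.9 and 7.995 CPM, both higher, and Mmp23, a membrane-anchored MMP, lower at 77.8 and 159.6 CPM. With Mmp16 the membrane-type MMPs at 10 CPM or more were Mmp14, Mmp16 and Mmp17, the first 2 higher in KO. Of 10 ADAM genes, 6 were measured, with 1 higher (Adam10, a sheddase, ratio 1.77) and 1 lower (Adam33, 0.355). Of 23 ADAMTS genes and relatives, 9 were measured, with 1 higher (Adamtsl5, 1.59) and 4 lower, among them Adamtsl1 (0.154), Adamts9 (0.281) and Adamts1 (0.389). The median log2 ratios of these lists were 1.24, 0.06 and -0.27.

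Of 15 genes of the plasminogen system and serine proteases, 9 were measured, 0 were higher and 5 lower, with a median log2 ratio of -1.11. They included Plat, the tissue plasminogen activator (14.8 CPM in KO and 44.9 CPM in Control), F3, tissue factor (10.0 and 34.7 CPM), and Htra3, a secreted serine protease (60.6 and 153 CPM). Of 20 regulators of MMPs, 17 were measured, with 3 higher and 4 lower. Thbs1, thrombospondin-1, which binds MMP2 and carries it to uptake, had 174 CPM in KO and 15.9 CPM in Control, a ratio of 10.9 (9.77 to 12.3), and its uptake receptor Lrp1 had a ratio of 1.57. Sdc1, a cell-surface proteoglycan, had a ratio of 2.05. Pcsk5, a proprotein convertase, had a ratio of 0.112, Cav1, the caveolar coat protein, 0.340 and Itgb3, an integrin subunit, 0.498.

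Of 23 MMP substrates, 21 were measured, with 3 higher and 8 lower, and of 23 AP-1, ETS, RUNX and related transcription factors 21 were measured, with 6 higher and 3 lower. Elastin (Eln) had 1203 CPM in KO and 2789 CPM in Control, a ratio of 0.431. Vcan, the large proteoglycan versican, had a ratio of 0.189 and Lama4, a laminin chain, 0.238, while Igfbp5 had 17.6, Dcn 15.4 and Nid1, a basement membrane linker, 2.49. Among transcription factors, Runx1 had 57.7 CPM in KO and 4.80 CPM in Control, a ratio of 12.0 (9.80 to 14.9), and Fosl1, an AP-1 subunit, 22.9 and 7.40 CPM, a ratio of 3.10 (2.59 to 3.73). Etv5, an ETS factor, had a ratio of 2.39. The AP-1 subunits Fos and Jun were lower, with ratios of 0.498 and 0.616, as was Tfeb at 0.479.

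Overlapping genes limit the counts of 5 members, since no source used here says whether the counting used strand. Timp1 lies inside Syn1 on the opposite strand (67 UMIs in KO and 20 in Control), Timp3 inside Syn3 (240 and 134) and Timp4 inside Syn2 (62 and 30). Timp2 overlaps Cep295nl on the same strand (34 and 10), and Mmp19 overlaps Tmem198b (98 and 79), which had more UMIs than Mmp19 itself. Timp4 also lies inside Gm17482, which had 0 UMIs in both libraries. Mmp19 also lies inside the antisense gene Gm47093, for which no count was available. Apart from Mmp19, the partner's UMIs were few beside those of the member in KO cells.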

How the data were processed

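Single-cell RNA-seq of sorted aortic SMCs gave 1 library per genotype. The deposited matrices hold UMI counts per gene and cell, which the authors made with bcl2fastq, Cell Ranger and Seurat 2.0 on mm10, per the submitters' processing notes, which give no role or setting. A table of the authors' mean counts per 10000 by cluster and library was also deposited and is used only where named. The kept cells, with at least 5 eGFP UMIs, 500 genes and at most 10% mitochondrial UMIs, were summed per library, with Python 3.11.15, numpy 2.4.6, scipy 1.17.1, pandas 2.3.3 and scanpy 1.11.5. Levels carry exact Poisson intervals, shares of cells exact binomial intervals and ratios exact conditional binomial intervals, all 95% and for counting error only, since there is 1 library per genotype and UMIs of a cell are not independent of each other. A gene was measured at 10 CPM or more in at least 1 of the groups compared, and 1.5-fold was the limit for higher and lower. Scrublet marked 6 KO and 6 Control cells as doublets, too few to show that the caller worked, and they were kept. Other columns of per-sample values left unused numbered 0. Contractile score genes were left out of the comparisons between tertiles. The scripts were tested on simulated data.

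The members, the gene lists and the rules were chosen with earlier results of these data known. The text names all 10 members, eGFP and Tsc1, up to 3 genes at each end of each related list by ratio among those past 1.5-fold, and the 5 genes most correlated with each member of at least 50 CPM. Genes that overlap a member are named as well. Markers, Timp2 beside Mmp2 and the MMPs of cells under 5 eGFP UMIs are named in addition, chosen after their values were seen. The alternatives covered other filters on cells, scalings, minimum levels, folds, contractile scores and ranges, and cells left out.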

Additional observations from a re-analysis of the deposited data

Results flagged for a closer look

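Transcripts of 3 MMPs outside the 10 members were seen in the 350 Control cells under 5 eGFP UMIs, 330 of them with no eGFP UMI, which the comparisons do not use, above their level in labelled Control cells. Mmp8, neutrophil collagenase, had 18.8 CPM (12.4 to 27.4) from 27 UMIs in these cells and 0 CPM in labelled Control cells. Mmp9, gelatinase B, had 11.2 CPM (6.38 to 18.1) from 16 UMIs, against 0.850 CPM in labelled Control cells. Mmp12, macrophage elastase, had 4.18 CPM (1.54 to 9.11) from 6 UMIs, against 0 CPM in labelled Control cells. The difference was not tested, since all values come from 1 library.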

How the results depend on the processing

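No paired analysis was possible because each group had 1 library. Over 18 alternatives the KO to Control ratio ran between 3.70 and 10.4 for Mmp2, 1.79 and 2.73 for Mmp14, 0.164 and 0.444 for Mmp17, 2.62 and 10.3 for Timp1, 2.26 and 3.17 for Timp2, 1.07 and 1.34 for Timp3, and 3.74 and 4.98 for Timp4, each on 1 side of 1. Mmp3 ran between 0.965, without the low contractile tertile of KO, and 6.22, and that lower value turned its direction. The upper ends of Mmp3 and Timp1 came from leaving out each member's 10 highest cells, which took a larger part of the Control than of the KO UMIs. The common ranges of contractile share are not among these 18 alternatives. In single ranges the ratio fell below 1, to 0.803 for Timp3, 0.556 for Timp1, 0.911 for Mmp14 and 0.124 for Mmp3. The Timp1 value came from a range that held the Control cell with 97 Timp1 UMIs. Of the members higher in KO, 4 were counted at a minimum of 50 CPM and 7 with no minimum, against 6. In the KO tertiles 1 member was lower at a minimum of 50 CPM, against 2. In the Control tertiles 3 members were higher with a score without Acta2 and Tagln, 3 at a minimum of 50 CPM and 2 without homeobox-positive cells, against 5. As a mean over cells the sum of the listed MMPs had a ratio of 2.02 and that of the TIMPs 1.81. In the related lists 7 genes were higher and 16 lower at a minimum of 50 CPM, against 16 and 26. The causes were not tested. Leaving out cells with Pdgfra, Dpt or Pi16, the low KO tertile, each member's 10 highest cells, or, in the Control tertiles, cells with immune marker UMIs was chosen after seeing the data. Depth limits Mmp15 and Mmp19, under 10 CPM in both libraries, and Mmp3, with 77 UMIs in Control and under 10 CPM in the Control tertiles and the middle and high common ranges.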
